A study of Mus musculus with 12 samples.

Results

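Open chromatin at the genes Bdnf and Gadd45b was followed in the dentate gyrus of mice of 3 groups. The members were all peaks that overlapped a window of 154 kb at Bdnf (chromosome 2 from 109464000 to 109618000, mm9) or of 102 kb at Gadd45b (chromosome 10 from 80343000 to 80445000, mm9), each window being the gene with about 50 kb on either side. Of 718062 peaks in the 12 lists on chromosomes 1 to 19 and X, 95 overlapped the Bdnf window and 86 the Gadd45b window. Each list came from ATAC-seq, in which a transposase cuts accessible DNA, on the microdissected dentate gyrus of a single C57BL/6 mouse aged 8 weeks. The titles name the groups E0, E1 and E4, with 4 mice each and no further allele or agent. The labels do not define these names. In the published work E0 was the unstimulated state, and E1 and E4 were reached 1 h and 4 h following electroconvulsive stimulation, which drives granule neurons to fire together. The tissue holds several cell types, so open DNA in fewer cells and less opening per cell cannot be told apart. The lists are in mm9 and carry no gene names, so the labelled tissue was not checked against marker genes, and a peak was assigned to no exon or promoter.

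Bdnf encodes brain-derived neurotrophic factor, a secreted protein that acts through the receptor TrkB and is needed for activity-dependent growth and plasticity of synapses. The gene has several alternative promoters, each joined to a shared coding exon, and some of them respond to calcium entry through factors such as CREB. Gadd45b encodes a small stress-response protein that neurons induce rapidly on activity. In the dentate gyrus it is known for its part in activity-dependent DNA demethylation, including that of Bdnf promoters.

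The promoters of the 2 genes are shown because Bdnf has several start sites and because a motif searched for lay in one of them. The RefSeq promoter table (GRCm38.p6) listed 7 start sites for Bdnf (gene 12064) and 1 for Gadd45b (gene 17873), and 29 genes of 27025 had 7 or more. From the first Bdnf start, the others lay 2.33, 17.7, 18.3, 19.7, 34.7 and 48.2 kb downstream on the plus strand. The promoters are numbered here in this order only, and these numbers were not matched to the exon or promoter numbers of Bdnf used elsewhere. The 250 bases before the start of the first and the third Bdnf promoter and of the Gadd45b promoter are given 5′ to 3′ in lower case, with any motif found in capitals. In order, they are chr2:109674450-109674699, chr2:109692186-109692435 and chr10:80929841-80930090, all on the plus strand of GRCm38.p6.

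Bdnf promoter 1: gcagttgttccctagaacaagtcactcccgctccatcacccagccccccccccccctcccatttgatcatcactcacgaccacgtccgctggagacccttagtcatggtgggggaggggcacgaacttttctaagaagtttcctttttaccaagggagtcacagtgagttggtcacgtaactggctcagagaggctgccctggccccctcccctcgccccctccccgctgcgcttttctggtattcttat

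Bdnf promoter 3: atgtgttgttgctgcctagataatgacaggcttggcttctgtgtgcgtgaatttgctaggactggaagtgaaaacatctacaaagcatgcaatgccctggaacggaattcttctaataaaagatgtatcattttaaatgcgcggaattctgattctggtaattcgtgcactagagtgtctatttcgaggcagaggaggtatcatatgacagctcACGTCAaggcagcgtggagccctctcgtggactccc

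Gadd45b promoter: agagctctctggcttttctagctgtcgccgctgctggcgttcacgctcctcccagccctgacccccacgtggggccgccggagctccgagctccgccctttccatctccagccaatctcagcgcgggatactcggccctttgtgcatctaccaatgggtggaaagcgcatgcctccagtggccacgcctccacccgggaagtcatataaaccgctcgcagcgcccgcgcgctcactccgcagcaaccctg

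The motifs searched on both strands were the cAMP response element TGACGTCA, its shorter form TGACGT (contained in the former), the AP-1 motifs TGACTCA and TGAGTCA, and the EGR motif GCGTGGGCG. TGACGT was found once, on the minus strand of the third Bdnf promoter, where the plus strand reads ACGTCA, 36 bases before the start. Among 32851 RefSeq promoters, 6.47% held TGACGT in the same 250 bases, 1.55% held TGACGTCA, 4.46% an AP-1 motif and 0.536% the EGR motif. None of these motifs lay in the other 6 Bdnf promoters or in that of Gadd45b, which says only that these letters are not in these windows. The Gadd45b promoter was 65.2% G and C with 22 CG pairs, against a median of 52.4% over all promoters. These coordinates are of another build than the peaks, and no match between the sequences and a peak was made.

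The lists differed widely in length, which bears on every count given here. They held 36861 to 77130 peaks in E0, 64152 to 84776 in E1 and 24426 to 104120 in E4 on chromosomes 1 to 19 and X, and the longest and the shortest were both E4 libraries (replicates 1 and 3). Mean covered length was 25.3 ± 12.4 Mb for E0, 33.5 ± 10.3 Mb for E1 and 22.5 ± 24.8 Mb for E4 (SD, n = 4). A peak list holds no read counts, so the depth is unknown, and a place with no peak is one that was not called, whether or not its DNA was closed. For this reason the main values are also given with each list reduced to its 24426 highest scores, the length of the shortest.

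On average the Bdnf window had more length under peaks in E1 than in E0 and E4. The number of peaks was nearly the same in E0 and E1, and the spread between libraries was wide. Peaks covered 7710, 6571, 2264 and 5273 bp of the window in E0 replicates 1 to 4. In E1 replicates 1 to 4 they covered 10616, 14693, 6783 and 6826 bp. In E4, replicate 1 had 10989 bp, whereas replicates 2 to 4 had 1685, 1824 and 1742 bp, below every other library. The E0 and E1 ranges overlapped because E0 replicate 1 lay above E1 replicates 3 and 4. The mean was 5454.5 ± 2348 bp in E0, 9730 ± 3765 bp in E1 and 4060 ± 4620 bp in E4 (SD, n = 4).

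E1 minus E0 was 4275 bp, a ratio of 1.78 (exact two-sided permutation p = 0.114, adjusted p = 0.566 over all genome tiles of this width). The median of 15753 tiles was 345 bp, 79.0% of them were higher in E1, and in 7.99% every E1 library lay above every E0 library. With lists of equal length the Bdnf window itself separated the groups. It then had 4486, 4261, 2264 and 4043 bp in E0 replicates 1 to 4 and 8888, 11137, 5361 and 5052 bp in E1. That is a ratio of 2.02 (exact permutation p = 0.0286, the smallest that 4 against 4 allows, adjusted p = 0.289), and 7.38% of tiles were separated in this way, with a median tile difference of 46.5 bp. The separation at equal length was thus one that many other tiles showed, and it did not pass the adjusted test. Under 2 other settings the groups overlapped. Scaled to the covered length of the list, E1 minus E0 was 64.2 bp per covered Mb (exact permutation p = 0.171). With scores of at least 100 it was 3938.5 bp (exact permutation p = 0.0857).

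E4 minus E0 was -1395 bp (exact permutation p = 0.571), and 0.236% of tiles had every E4 library below every E0 library. E4 minus E1 was -5670 bp (exact permutation p = 0.114, adjusted p = 0.881), and 1.09% of tiles had every E4 library below every E1 library. Without E4 replicate 1, E4 minus E0 was -3704 bp and E4 minus E1 was -7979 bp, the latter with the groups apart (exact permutation p = 0.0286, adjusted p = 0.0884). With that library left out, 66.1% of tiles had every E4 library below every E1 library, so this separation was the usual outcome over the genome. The number of peaks in the window was 11, 8, 5 and 10 in E0, 10, 8, 9 and 11 in E1, and 9, 4, 5 and 5 in E4. E1 minus E0 was thus 1 peak (exact permutation p = 0.686) and E4 minus E1 -3.75 peaks (exact permutation p = 0.0857).

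**Figure D1:**
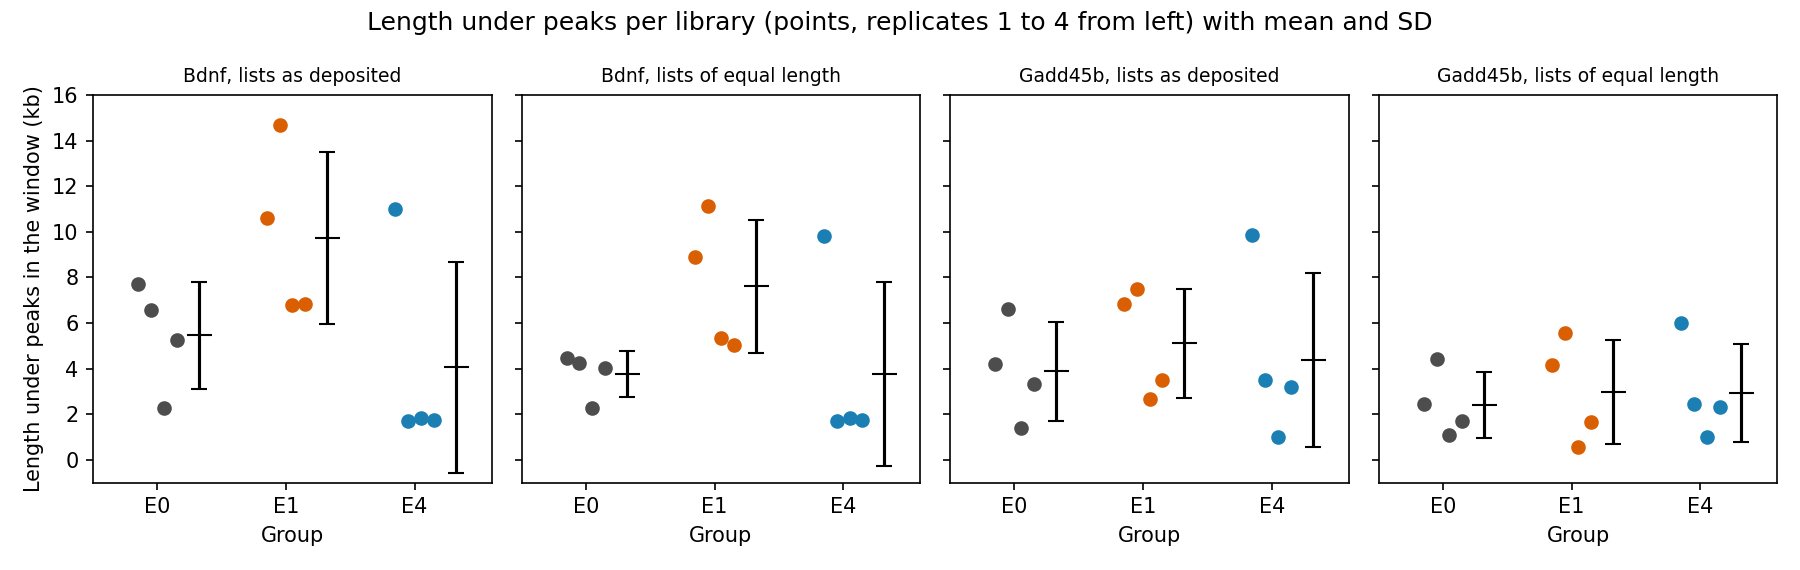
Length under peaks in each window (y axis, kb) for each library (points, by group on the x axis) with the mean and SD, for lists as deposited and for lists of equal length. In the Bdnf window all E1 libraries lie above all E0 libraries with lists of equal length, E4 replicate 1 lies far above the other E4 libraries, and in the Gadd45b window the 3 groups overlap throughout.

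Overlapping peaks of the 12 libraries merged into 17 regions in the Bdnf window, of which 3 were called in every library and 7 in just 1. Over the genome 5.29% of 170710 regions were called in all 12 and 35.1% in 1. Each region is named here by the distance of its centre from the gene start that the window rule implies, about 50 kb into the window. The percentile of a peak is the rank of its deposited score within its own list, from 0 for the lowest to 100 for the highest, and a library without a peak was set to 0. Of the 16 regions with a peak in E0 or E1, 1 was called gained, with a peak in 4 of 4 E1 libraries and 0 of 4 E0 libraries, and none was called lost. Over the genome 3.71% of 150204 regions were gained and 0.206% lost. The percentiles of E1 lay wholly above those of E0 in 3 Bdnf regions and wholly below in 1, against 7.92% and 1.06% of regions over the genome. Where percentiles lie wholly apart the exact permutation p is 0.0286 by that fact alone, so for these 4 regions it adds nothing to the count and is given only with its adjusted value.

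The gained region lay at +70 kb, 16 kb beyond the end of the gene as the rule places it (chromosome 2 from 109583711 to 109584259, 549 bp). No E0 library had a peak there. E1 replicates 1 to 4 had peaks at percentiles 73.0, 68.0, 77.5 and 83.2, with widths of 472, 421, 298 and 210 bp. All 4 E1 peaks shared the 210 bp from 109583907 to 109584116. In E4, replicate 1 alone had a peak, at percentile 76.2. The E1 mean was 75.4 ± 6.48 (SD, n = 4). A peak in every E1 and no E0 library sets the exact permutation p of this difference at 0.0286 (adjusted p = 0.318 over all regions). No region of the genome had a lower adjusted p. All regions with percentiles wholly apart share this value, 7.92% upward and 1.06% downward over the genome. With lists of equal length, E1 had the peak in 3 of 4 libraries and E0 in none, and the difference, in percentiles of the shortened lists, was 24.3 points (exact permutation p = 0.143).

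A region at -34.8 kb, before the gene (chromosome 2 from 109478690 to 109479739, 1050 bp), had weak peaks in E0 and strong ones in E1. E0 replicates 1, 2 and 4 stood at percentiles 15.9, 32.1 and 29.9, and replicate 3 had no peak. E1 replicates 1 to 4 stood at 89.0, 92.5, 89.3 and 94.8, so the E0 and E1 values lay far apart. In E4, replicates 1 and 3 stood at 92.5 and 90.6, as high as in E1, while replicates 2 and 4 had no peak. E1 minus E0 was 71.9 percentile points (exact permutation p = 0.0286, adjusted p = 0.318), and E4 minus E0 was 26.3 points (exact permutation p = 0.429). The peaks also differed in width, at 242 to 344 bp in E0 and 574 to 880 bp in E1. In E4, replicate 1, with the longest list, had 982 bp. E4 replicate 3, with the shortest list, had 353 bp, below every E1 width despite its high percentile.

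Reducing the lists to equal length turned this region into a gained one, present in 4 of 4 E1 libraries and 0 of 4 E0 libraries, as did a score of at least 100, with which 4.68% of regions over the genome were gained. At equal length 4% of regions over the genome were gained and 1.62% lost at E1. With the lists as deposited this region was not gained, because low-ranking peaks in E0 replicates 1, 2 and 4 make it present.

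The opposite order was seen at +82.0 kb (chromosome 2 from 109595711 to 109596312, 602 bp), 28.0 kb beyond the gene. E0 replicates 1 to 4 stood at percentiles 88.2, 87.1, 81.8 and 79.5. E1 replicates 1 and 2 stood at 66.7 and 41.7, and replicates 3 and 4 had no peak. In E4, replicate 1 stood at 81.4 and the other 3 libraries had no peak. All E0 values lay above all E1 values, with E1 minus E0 at -57.1 points (exact permutation p = 0.0286, adjusted p = 0.318). E4 minus E0 was -63.8 points (exact permutation p = 0.0571). With lists of equal length the peak was found in 4 of 4 E0 libraries and in no E1 library, which is a lost region.

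The +70 and +82.0 kb regions are neighbours on the far side of Bdnf, and in these lists they went opposite ways between E0 and E1. In E4 replicates 2 to 4, whose lists were the 3 shortest, neither was called.

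**Figure D2:**
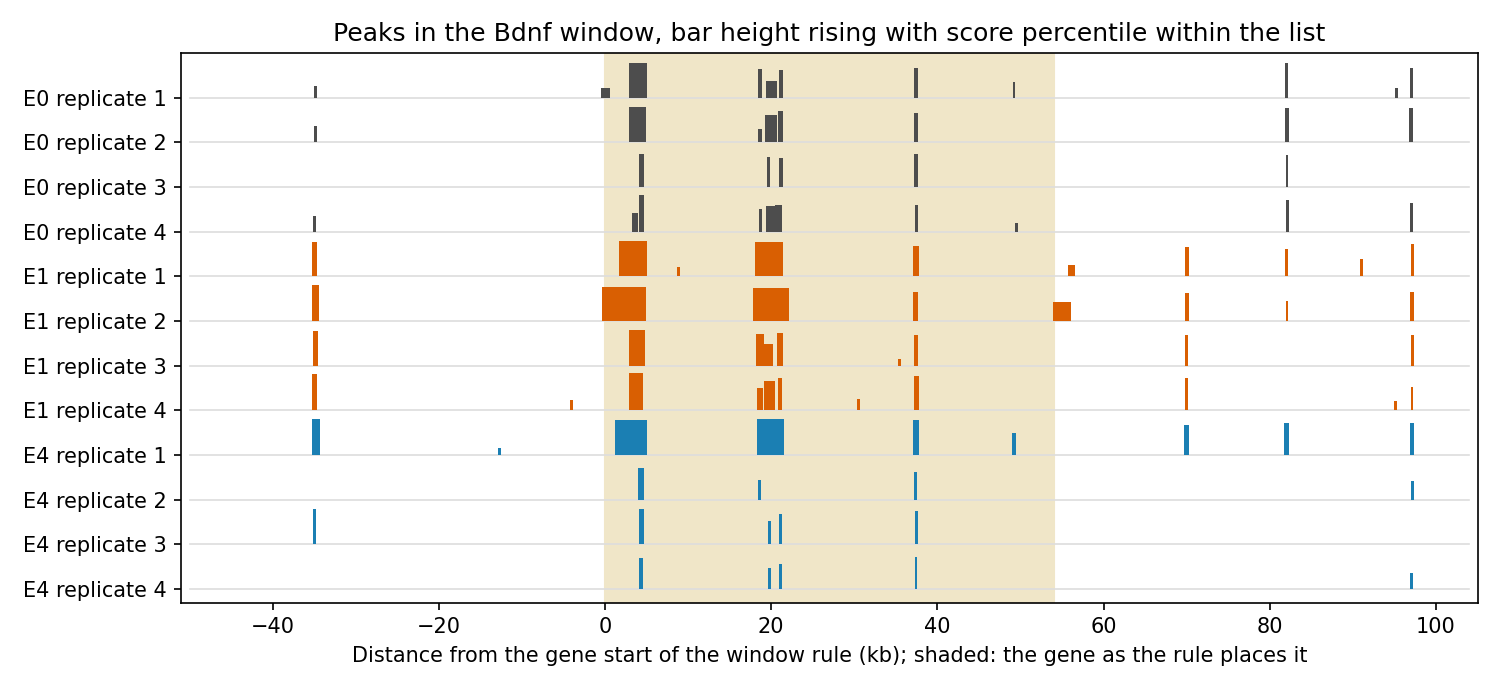
Peaks in the Bdnf window in each of the 12 libraries (rows), by distance from the gene start of the window rule (x axis, kb), with the gene shaded and bar height rising with the percentile of the score. Peaks narrower than 0.35 kb are drawn 0.35 kb wide. The peak at 70 kb is seen in the 4 E1 libraries and E4 replicate 1, and the peak at 82 kb in the 4 E0 libraries, 2 E1 libraries and E4 replicate 1.

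Within the gene, 3 places had a peak in every library, and at each the mean length under peaks was greatest in E1. The highest-ranking one was a region at +2.3 kb (chromosome 2 from 109513522 to 109519022, 5501 bp). Its percentiles were 82.9 to 95.3 in E0, 87.9 to 97.1 in E1 and 78.7 to 93.3 in E4, so the groups overlapped (E1 minus E0 2.87 points, exact permutation p = 0.429). Its core, from 109518090 to 109518518 (429 bp), was covered in all 12 libraries. The length under peaks was 3261, 2080, 582 and 1296 bp in E0 replicates 1 to 4 and 3391, 5384, 1959 and 1796 bp in E1. E4 replicate 1 had 3778 bp, and replicates 2 to 4 had 719, 540 and 463 bp. The stretch covered by all E1 libraries ran over 1792 bp, from 109516830 to 109518621. It was chosen by its cover in E1, so its cover in the other groups is no test. E4 replicate 1 covered the whole of it and no E0 library did. However, E0 replicates 1 and 2 had peaks from 109516883 and 109516890 to beyond its end.

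The second was a cluster at +20 kb (chromosome 2 from 109531815 to 109536159, 4345 bp), which was called as 3 separate peaks in E0 replicates 1, 2 and 4 and E1 replicates 3 and 4. Percentiles were 69.9, 78.7, 75.3 and 63.5 in E0 and 87.2, 83.8, 81.8 and 82.5 in E1. Every E1 library thus lay above every E0 library (E1 minus E0 12.04 points, exact permutation p = 0.0286, adjusted p = 0.318). With lists of equal length the groups overlapped, at a difference of 12.5 points (exact permutation p = 0.20). E4 spread from 41.1 in replicate 2 to 92.7 in replicate 1. The length under peaks was 2305, 2655, 925 and 2386 bp in E0, 3353, 4345, 2727 and 2652 bp in E1, and 3304, 290, 656 and 733 bp in E4. In E1 replicates 1 and 2 and E4 replicate 1 the cluster was 1 unbroken peak of 3304 to 4345 bp, and in E0 replicate 3 and E4 replicates 2 to 4 only 1 or 2 peaks of 290 to 496 bp were called.

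This cluster held most of the bases that separated E1 from E0 inside the gene. Stretches of 120, 161 and 66 bp between 109532255 and 109533206 were covered in 4 of 4 E1 libraries and 0 of 4 E0 libraries, and so was a stretch of 53 bp from 109516830 to 109516882 in the region at +2.3 kb. With the 210 bp at +70 kb and 29 and 20 bp at -34.8 kb, such bases came to 659 bp, or 3.67% of all bases of the window under a peak in E0 or E1, against 2.44% over the genome. No base of the window showed the opposite, against 0.148% over the genome.

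**Figure D3:**
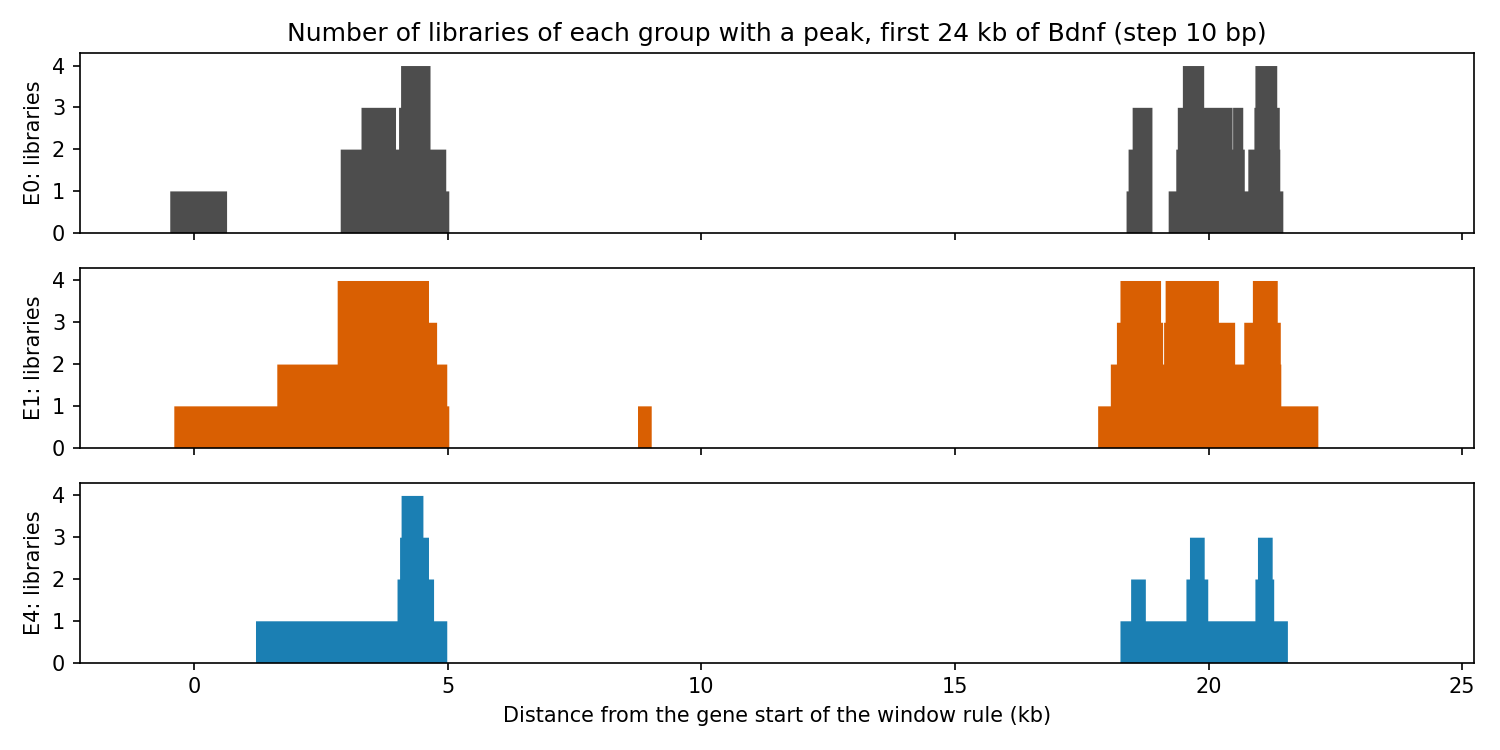
Number of libraries of each group (y axis, 0 to 4) with a peak at each position over the first 24 kb of Bdnf, by distance from the gene start of the window rule (x axis, kb, step 10 bp). The E1 panel reaches 4 libraries over wider stretches than E0 and E4 at both places, and all groups reach 4 at the 429 bp core near 4.3 kb.

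The third, at +37.4 kb (chromosome 2 from 109551013 to 109551812, 800 bp), had a single peak in each library. Percentiles were 65.4 to 82.9 in E0, 70.2 to 88.5 in E1 and 66.6 to 89.6 in E4, with every pair of groups overlapping. A stretch of 259 bp was covered in all 12 libraries. Width was 401 to 531 bp in E0 and 506 to 683 bp in E1, which overlapped, against 275 to 348 bp in E4 replicates 2 to 4 and 687 bp in E4 replicate 1.

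The last region of high rank lay at +97.1 kb, 43.1 kb beyond the gene (chromosome 2 from 109610802 to 109611403, 602 bp). It was called in E0 replicates 1, 2 and 4 at percentiles 73.3, 87.8 and 70.8 and in all E1 libraries at 83.3, 70.8, 77.2 and 52.5. E4 replicates 1, 2 and 4 stood at 81.4, 38.7 and 30.7. The groups overlapped in all 3 comparisons (exact permutation p = 0.743 for E1 minus E0 and 0.114 for E4 minus E1). Each of the other 10 Bdnf regions had a peak in only 1 or 2 libraries. Of these, a region at +55.3 kb, at the end of the gene, was called in E1 replicates 1 and 2 alone, at percentiles 15.2 and 38.7, with 2146 bp in replicate 2. One at +49.2 kb was called in E0 replicate 1 and E4 replicate 1.

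**Figure D4:**
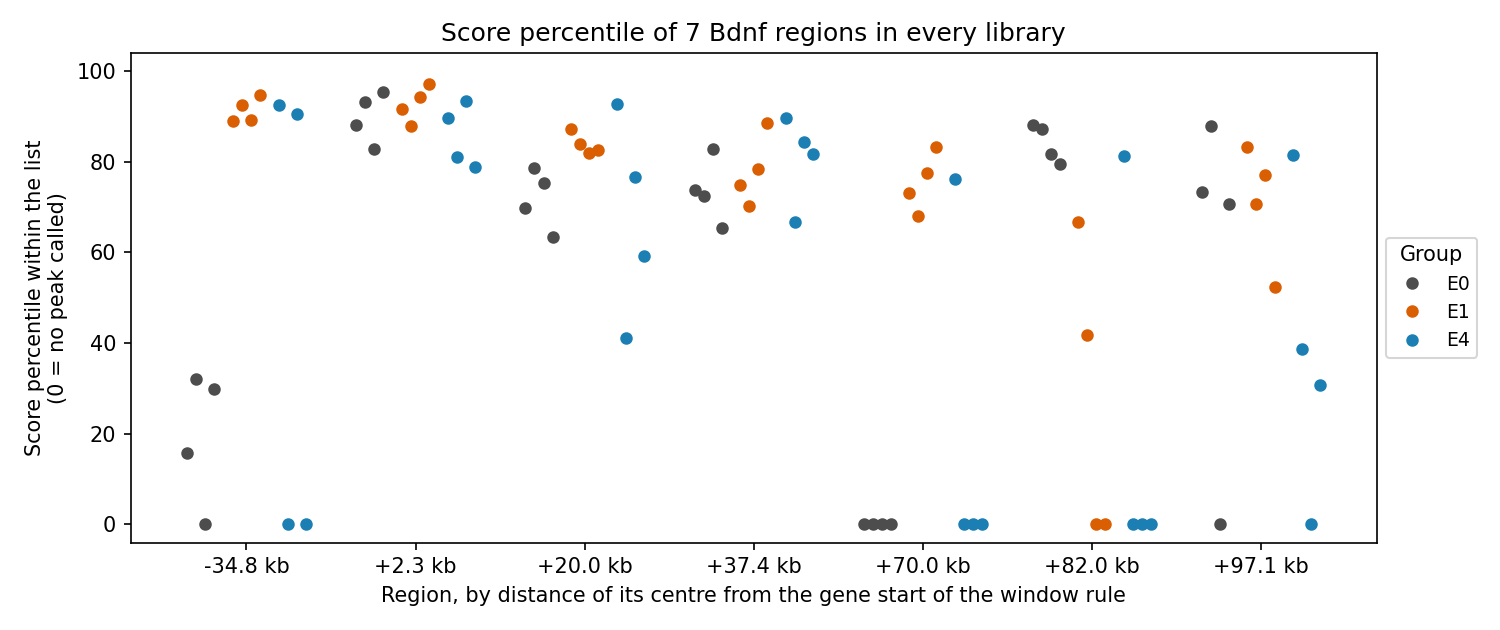
Score percentile within the list (y axis, 0 where no peak was called) of 7 Bdnf regions (x axis, by distance of the centre from the gene start of the window rule) in each library, coloured by group. E1 lies wholly above E0 at -34.8, +20 and +70 kb and wholly below it at +82.0 kb.

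For E4 no Bdnf region was called gained or lost against either group, and in none did the percentiles of the groups lie apart. Over the genome 0.165% of 140384 regions were gained and 0.177% lost at E4 against E0, and 0.0112% of 151249 were gained and 0.506% lost against E1. Percentiles lay apart upward in 0.437% and downward in 0.883% of regions for E4 against E0, and in 0.0483% and 2.5% for E4 against E1. The median percentile difference of the Bdnf regions was 3.45 points for E1 minus E0, -1.61 for E4 minus E0 and -5.39 for E4 minus E1, beside genome medians of 2.98, -0.545 and -4.70.  When E4 replicate 1 was left out, the +82.0 kb region was lost against E0 and the +70 kb region was lost against E1, by a rule that then asks for only 3 E4 libraries without a peak. Under this looser rule 3.19% of regions over the genome were lost against E0 and 7% against E1.

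In the Gadd45b window, as in the Bdnf window with the lists as deposited, the groups overlapped in all 3 comparisons of length under peaks. Peaks covered 4186, 6614, 1377 and 3341 bp in E0 replicates 1 to 4, 6843, 7472, 2655 and 3492 bp in E1, and 9855, 3488, 988 and 3206 bp in E4. The highest and the lowest value were both in E4, in the libraries with the longest and the shortest list. The means were 3880 ± 2170, 5116 ± 2396 and 4384 ± 3815 bp (SD, n = 4). E1 minus E0 was 1236 bp (exact permutation p = 0.457, adjusted p = 0.834 over tiles), with 8.03% of tiles of this width apart in that direction. E4 minus E0 was 505 bp (exact permutation p = 0.886, 0.114% of tiles apart upward) and turned to -1319 bp without E4 replicate 1. E4 minus E1 was -731 bp (exact permutation p = 0.80, 1.22% of tiles apart downward). With lists of equal length the ranges were 1079 to 4419 bp in E0, 551 to 5555 bp in E1 and 988 to 6011 bp in E4.

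The 86 peaks of this window merged into 12 regions, 2 of them called in every library and 2 in just 1. No region was called gained or lost, and no percentiles of 2 groups lay apart, in any of the 3 comparisons. Over the genome 3.71% of regions were gained and 0.206% lost for E1 against E0. Percentiles lay apart upward in 7.92% and downward in 1.06%, and the shares for E4 are those given for Bdnf. With 12 regions, a count of none is close to these shares and sets Gadd45b apart from the genome in no way. The median percentile difference was 1.003 points for E1 minus E0, -1.43 for E4 minus E0 and -0.928 for E4 minus E1. In the GRCm38 gene table the genes within 50 kb of Gadd45b are Tmprss9, Timm13 and Lmnb2 before it and Gng7 and Gm3828 after it, and the table lists none for Bdnf. Lmnb2 encodes a nuclear lamin and Gng7 a G protein subunit, and peaks of the flanks were not assigned to any of these genes.

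The region that spans the gene start (chromosome 10 from 80391103 to 80394425, 3323 bp) was among the 2 strongest of the window in every group. Percentiles were 89.7, 89.3, 73.3 and 89.7 in E0, 90.7, 86.1, 62.8 and 82.9 in E1, and 83.3, 80.8, 84.3 and 80.7 in E4. E1 minus E0 was -4.89 points (exact permutation p = 0.543), and E4 minus E0 was -3.20 points (exact permutation p = 0.571). A core of 268 bp, from 80392589 to 80392856, was covered in all 12 libraries, just before the gene start of the rule.

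Around this core the peaks differed in extent. A stretch of 479 bp at -1.50 kb (80391257 to 80391735) was chosen because 4 of 4 E1 libraries covered it. Its cover in the other groups is therefore no test. Peaks overlapped it in 2 E0 libraries and 3 E4 libraries, without covering the whole of it in any. E0 replicates 1 and 2 covered it from 80391290 to its end, and E4 replicate 1 from 80391277 to its end. The first 33 bp of the stretch were covered in 4 of 4 E1 and 0 of 4 E0 libraries, the only such bases of the window. They made up 0.305% of the window's bases under a peak in E0 or E1, against a higher share of 2.44% over the genome. On the other side, 318 bp at +0.275 kb (80393116 to 80393433) were chosen by their cover in 4 of 4 E4 libraries, so this too is no test. They were covered in full in 2 E1 libraries and in 1 E0 library, and E0 replicate 4 covered them up to 80393325. Length under peaks in the whole region was 690 to 1965 bp in E0, 1315 to 3171 bp in E1 and 740 to 2920 bp in E4, and the 3 ranges overlapped.

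The other region held by all libraries lay at -29.6 kb (chromosome 10 from 80362678 to 80364138, 1461 bp). Percentiles were 84.9 to 93.9 in E0 and 83.8 to 95.4 in E1. E4 replicates 1, 2 and 4 stood at 91.1, 97.1 and 85.1, but E4 replicate 3, with the shortest list, stood at 1.26 with a peak of 248 bp. E4 minus E0 was -20.8 points (exact permutation p = 0.686).

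Of the 12 regions, 4 were called in more E1 than E0 libraries, 3 in more E0 than E1 libraries and 5 in equal numbers, beside 51.7% and 26.7% of regions over the genome with more E1 and more E0 libraries. The mean percentile was higher in E1 in 7 of the 12, beside 62.3% over the genome. One at +9.25 kb (chromosome 10 from 80401557 to 80402942, 1386 bp) had a peak in E0 replicates 1 and 2, at percentiles 52.0 and 42.2. It had a peak in all E1 libraries, at 76.8, 82.3, 35.8 and 28.2. E4 replicates 1 and 2 stood at 87.5 and 72.3, and replicates 3 and 4 had none. The groups overlapped, with E1 minus E0 at 32.3 points (exact permutation p = 0.171, adjusted p = 0.819). A region at -12.3 kb was called in E0 replicates 1 and 2, at 77.9 and 79.8, in all E1 libraries, at 69.1, 80.4, 3.62 and 36.7, and in E4 replicates 1, 2 and 4, at 87.7, 73.1 and 13.2. A region at -32.1 kb had a peak in 2 E0, 3 E1 and 3 E4 libraries, with percentiles up to 50.7, 71.0 and 69.0. At +9.25 kb the peak was missing in the 2 E0 libraries with the shortest E0 lists and the 2 E4 libraries with the shortest lists, and the part of list length in this difference was not tested.

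**Figure D5:**
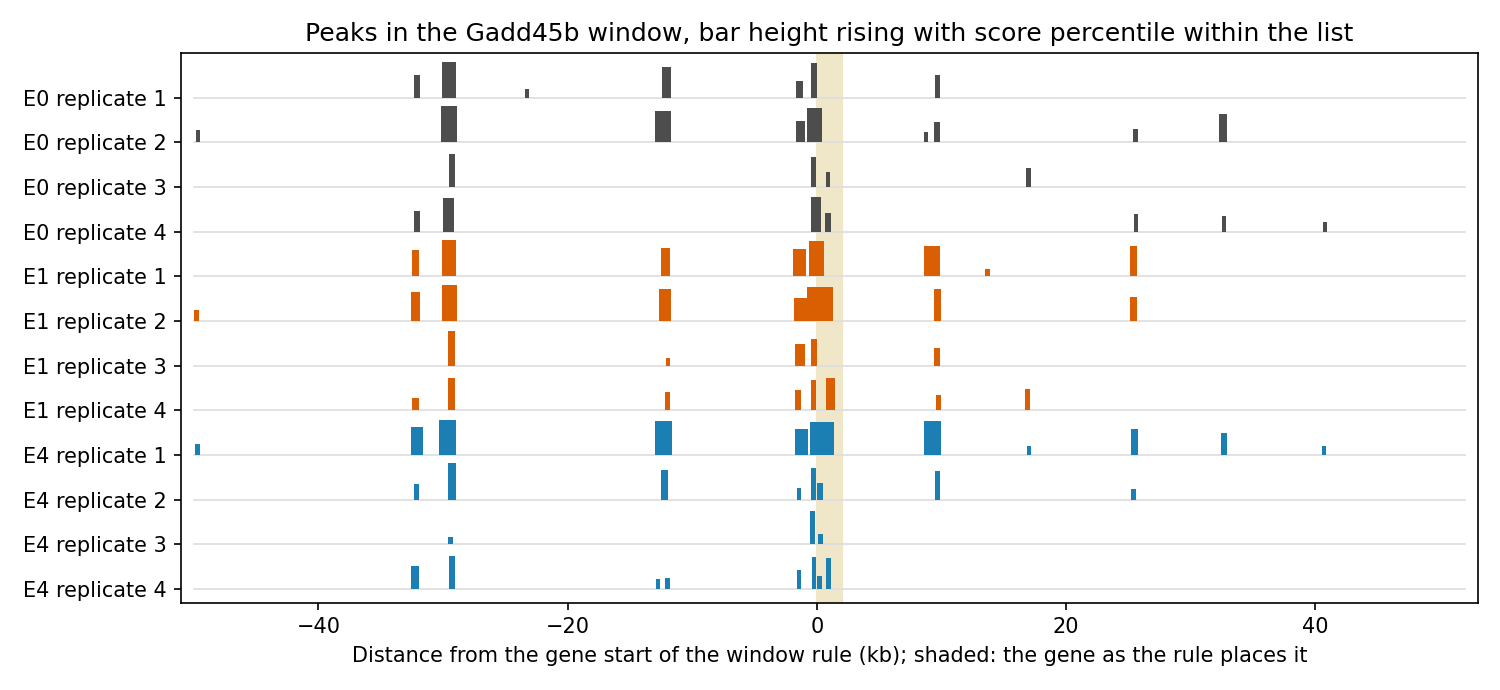
Peaks in the Gadd45b window in each of the 12 libraries (rows), by distance from the gene start of the window rule (x axis, kb), with the gene shaded and bar height rising with the percentile of the score. Peaks narrower than 0.35 kb are drawn 0.35 kb wide. The peaks near -29.6 kb and at the gene start are seen in all 12 libraries, and no peak separates the groups.

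The remaining 7 Gadd45b regions had a peak in 1 to 6 libraries. The most frequent, at +25.4 kb, was called in 2 libraries of each group, at percentiles 20.5 and 36.6 in E0, 76.0 and 54.7 in E1 and 62.3 and 12.3 in E4. A region at +32.6 kb had a peak in E0 replicates 2 and 4 and E4 replicate 1 and in no E1 library.

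The 2 windows are set side by side here without a test between them. The median percentile of the peaks of a list was 71.7 ± 8.63 in E0, 74.0 ± 3.28 in E1 and 69.7 ± 15.4 in E4 at Bdnf (SD, n = 4). At Gadd45b it was 48.7 ± 7.52, 61.2 ± 15.03 and 43.4 ± 21.2. Relative to the whole list, the Bdnf window held 223 ± 67.1 bp per covered Mb in E0, 287 ± 35.1 in E1 and 183 ± 46.3 in E4 (SD, n = 4), and on this scale every E4 library lay below every E1 library (exact permutation p = 0.0286, adjusted p = 0.377), as in 5.69% of tiles. The Gadd45b window held 149 ± 35.4, 148 ± 34.0 and 221 ± 86.4 bp per covered Mb in the same groups.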

How the data were processed

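The data are 12 peak lists, 1 per mouse, and the sample titles place 4 in E0, 4 in E1 and 4 in E4. The authors deposited 5 columns, namely chromosome, start, end, a name with a MACS prefix and a score. Per the submitters' processing notes, Bowtie2 was used and the build was mm9. The deposited score has no stated scale and starts at about 50, so it was used only as a percentile within its list. The sources used here do not give the caller's version, its threshold or control, or how reads were shifted and duplicates treated. Depth is unknown.

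Chromosome Y was left out (9 to 43 peaks per list). Peaks on chromosomes 1 to 19 and X were merged where they shared at least 1 bp (Python 3.11.15, numpy 2.4.6, pandas 2.3.3, scipy 1.17.1). Group differences were tested by an exact two-sided permutation test over 70 assignments, whose smallest p is 0.0286. It sets a difference against the spread between libraries. With 1 library per mouse, differences between mice and between lists cannot be told apart in that spread. Benjamini-Hochberg adjustment ran over all regions of the genome or over all tiles of the window's width with a peak in the groups compared. The functions were tested on simulated data. Named regions were those gained or lost, those with percentiles of groups apart, and the 5 of each window with the highest mean percentile. The members, lists and tests were chosen with earlier results of these data known. The alternatives were lists of equal length, a score of at least 100, scaling to the list, the gene without its 50 kb flanks, 50% overlap, a merging gap of 100 bp, each library left out and a replicate block. A list of neurotrophin and demethylation genes was not used, since no annotation of mm9 was at hand.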

Additional observations from a re-analysis of the deposited data

Results flagged for a closer look

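Among 48 groups of 4 values looked at (2 measures in each of 2 windows and the percentile of 12 regions, in 3 groups), 6 had a library far from the other three. Chance gives about 1 in 20 for continuous values, but in 3 of the 6 the other values were tied, and some regions were chosen for their values, so the number of such groups was not compared with chance. E4 replicate 1, with the longest list, stood out 3 times. It covered 10989 bp of the Bdnf window, against 1685 to 1824 bp in the other E4 libraries. It stood at percentile 76.2 in the Bdnf region at +70 kb and at 81.4 in that at +82.0 kb, where the other E4 libraries had no peak. E1 replicate 3 had 5 peaks in the Gadd45b window, against 8 in each other E1 library. E4 replicate 3, with the shortest list, stood at percentile 1.26 in the Gadd45b region at -29.6 kb, against 85.1 to 97.1. E0 replicate 3, with the shortest E0 list, stood at 73.3 in the region at the Gadd45b gene start, against 89.3 to 89.7.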

How the results depend on the processing

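No difference of a whole window passed the unadjusted threshold of 0.05 with the lists as deposited. A change of sign here is thus a change within the spread between libraries. With lists of equal length, E1 minus E0 in covered length at Bdnf was 3846 bp (exact permutation p = 0.0286) and E4 minus E0 was 4 bp. Scaled to the list, E4 minus E1 at Bdnf was -104 bp per covered Mb (exact permutation p = 0.0286), and at Gadd45b it was 73.3, with E1 minus E0 at -1.31. Peaks per 1000 peaks of the list differed by -0.0318 (E1 minus E0) and 0.0125 (E4 minus E1) at Bdnf and by -0.0271 (E1 minus E0) at Gadd45b. For the gene without flanks, E1 minus E0 was -0.75 peaks at Bdnf and -0.25 at Gadd45b, and E4 minus E1 was 110 bp at Gadd45b. With scores of at least 100, E4 minus E1 was -0.75 peaks at Gadd45b.

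With 1 library left out, covered length at Bdnf ran from 2621 to 5257 bp for E1 minus E0, from -3704 to -603 bp for E4 minus E0 and from -7979 (without E4 replicate 1, exact permutation p = 0.0286) to -4015 bp for E4 minus E1. At Gadd45b it ran from 402 to 2148, from -1319 to 1637 and from -2555 to 401 bp. Peaks at Bdnf ran from -0.167 to 1.83, from -3.92 to -1.92 and from -4.83 (without E4 replicate 1, exact permutation p = 0.0286, with 45.5% of tiles also apart) to -3.17. At Gadd45b they ran from -0.417 to 1.25, from -0.417 to 2.25 and from -0.917 to 1.75.

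The 1 Bdnf region gained at E1 became 2 with scores of at least 100 (4.68% of regions over the genome gained) and 0 within the gene alone. It stayed 1 with lists of equal length, where the gained region was the one at -34.8 kb and no longer that at +70 kb. Under the demand of 50% coverage of a region it was again that at -34.8 kb (2.64% of regions over the genome gained), with that at +70 kb held by 3 E1 libraries. Lost Bdnf regions at E1 became 1 with lists of equal length, and those at E4 ran from 0 to 1 against E0 and from 0 to 1 against E1 with 1 library left out. The cause of these changes was not tested.

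Of the 4 Bdnf regions with percentiles apart between E1 and E0, those at -34.8 and +82.0 kb stayed apart with lists of equal length. With any 1 E1 library left out, the region at +20 kb differed by 10.9 to 12.7 points (exact permutation p = 0.0571). With any 1 E0 library left out, the region at +82.0 kb differed by -58.6 to -55.7 points (exact permutation p = 0.0571). Over libraries of both groups left out in turn, the difference at +20 kb ran from 9.25 to 14.3 points. At +82.0 kb it ran from -70.3 to -48.0 points. Groups that lie apart stay apart when a library is removed, so leaving libraries out could not test the separation. The replicate block treats libraries of the same number as pairs, and its mean difference equals the difference of the group means by construction. The block therefore had to give 71.9, 12.04, 75.4 and -57.1 points again for the regions at -34.8, +20, +70 and +82.0 kb. Its smallest exact p is 0.125, so it can pass no threshold. Same-numbered libraries of different groups correlated at -0.089 to 0.239 in their deviations from the group means, and different-numbered ones at -0.314 to 0.353. The numbers were not taken as pairs, by a chosen rule that all 12 same-numbered pairs lie above 0.1, where 7 did. This rule is strict, and whether the numbers mark pairs is not settled by it. A library correlated best with its own number in 10 of 24 cases, where 6 would be so if numbers meant nothing.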
